A study of Mus musculus with 20 samples.

Results

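The genes of 10 proteins of the lipid droplet surface, of droplet assembly and of the caveolae that face the droplets were read in visceral adipose tissue of mice. They are the perilipins Plin1, Plin2, Plin3, Plin4 and Plin5, the CIDE proteins Cidea and Cidec, the endoplasmic reticulum proteins Fitm2 and Bscl2, and caveolin Cav1. They were chosen by name: every spot of the array that is not a control and carries 1 of these gene names was taken. All 10 genes were found, with 16 probes, and all 16 passed the filter on dim probes, among 25618 gene names and 39390 probes tested. Each of the 16 was well above background on all 20 arrays, and none of their spots was marked as an outlier.

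The tissue was epididymal fat of male C57bl/6J mice of the F3 generation, with 1 array of 1 colour per mouse. The 6 Ref mice (STD Cont in the labels) came from a lineage given a control fatty acid supplement, a sunflower oil rich in oleic acid, and stayed on a low-fat reference diet. The 6 HFoleic mice (HFD Cont) came from the same lineage and were fed an obesogenic diet, high in fat and sucrose. The 8 HFepa mice (HFD O3) were fed that obesogenic diet too, but came from a lineage supplemented with n-3PUFA, a fish oil rich in eicosapentaenoic acid, over successive generations. No group of the omega 3 lineage on the reference diet was analysed here, so HFepa vs. HFoleic compares lineages on the same diet and HFepa vs. Ref differs in both. Only RNA above a limit of integrity was hybridized. Litters are not given in the labels, and p-values measure the spread between these mice. All arrays carry 1 wash batch label and lie on 3 slides, each with mice of every group. The share of spots well above background was 66.1% to 71.9% per array, no spot was saturated, and the number of mice limits the precision. Of the 9 adipocyte markers all were measured, and their mean log2 intensity ranged from 16.3 to 16.7 in Ref, 15.9 to 16.7 in HFoleic and 16.03 to 16.7 in HFepa mice. The 3 epididymis markers that passed the filter, of 7, reached a mean log2 intensity of 9.14 in Ref mouse 3 and 9.14 in HFepa mouse 2, against 7.12 in the lowest array.

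Fat cells keep triglyceride in droplets bounded by a phospholipid monolayer, and the perilipins coat that surface and control the access of lipases. PLIN1 is the main coat protein of the fat cell and holds the lipase co-activator ABHD5 until hormones trigger lipolysis, while PLIN2 and PLIN3 coat droplets in most other cells, lipid-laden macrophages among them. CIDE proteins move lipid from small to large droplets, seipin and FIT2 act where droplets bud from the endoplasmic reticulum, and caveolin builds the caveolae with which the fat cell membrane is densely covered. In whole tissue, fewer cells of a type and less RNA per cell cannot be told apart.

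Values are quantile-normalized log2 intensities of 1 probe per gene, the brightest of its tested probes, and a difference of 1 is a 2-fold change. Intensities of different probes are not compared. Every adjusted p is from limma with Benjamini-Hochberg adjustment over the 39390 tested probes, and a gene is called at an adjusted p under 0.05. The called genes were Plin2 and Plin3, both higher in HFoleic than in Ref mice, so that 2 of 10 were called where 31.8% of all genes were. In that direction the share of all genes called was 15.2%. No gene of the 10 was called in HFepa vs. Ref, where 2.46% of all genes were, or in HFepa vs. HFoleic, where 0% were. At an unadjusted limma p under 0.05 the counts were 6 of 10, 2 of 10 and 2 of 10, against 42.2%, 21.6% and 20.8% of all genes. The ranges of the groups overlapped for all 10 genes in every comparison, while in HFoleic vs. Ref 14.0% of all genes had groups that did not overlap. That share was 1.04% in HFepa vs. Ref and 0.355% in HFepa vs. HFoleic. The median size of the difference in HFoleic vs. Ref, without its sign, was log2 0.39 over the 10 genes and 0.18 over all genes. All 10 were well above background on all 20 arrays, while at least 6 arrays sufficed for a tested probe. The sets were not matched for brightness.

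**Figure D1:**
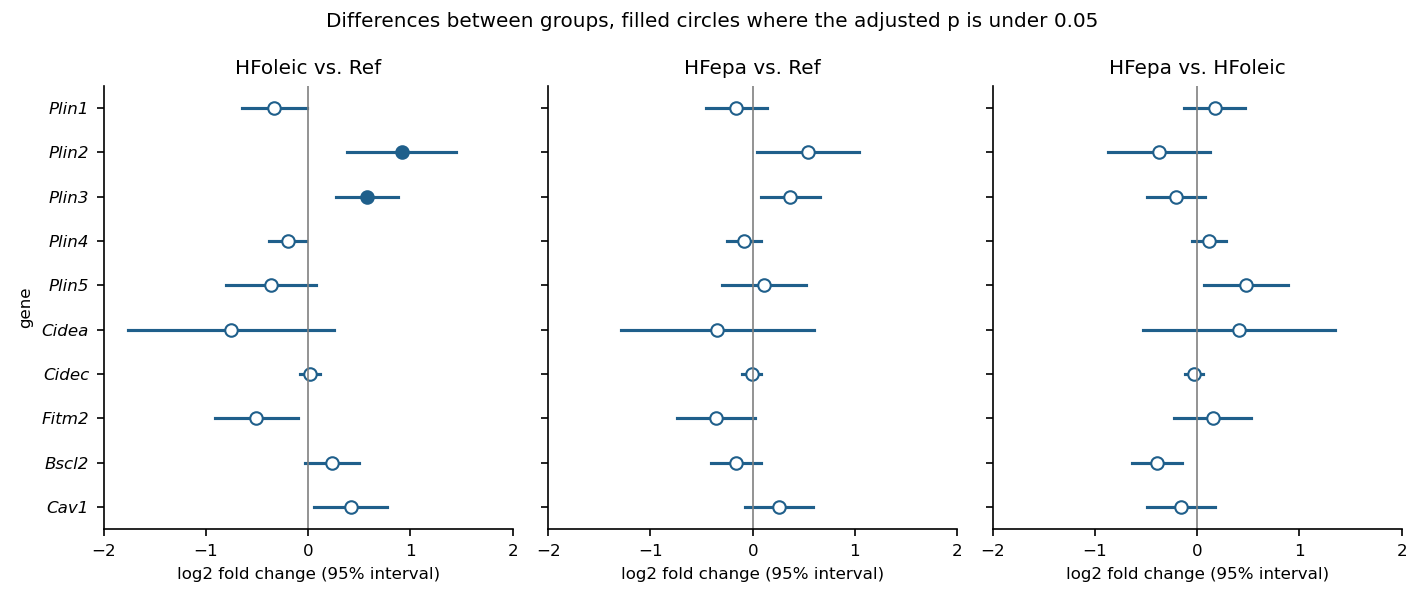
Log2 fold change of the 10 genes in the 3 comparisons, with 95% intervals from limma, filled where the adjusted p was under 0.05. The filled circles are Plin2 (0.92) and Plin3 (0.57) in HFoleic vs. Ref, and no circle is filled in the comparisons with HFepa mice.

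The probe of Plin2, the perilipin of most cells that store little fat, lies at chr4:86302847-86302906 (mm9). In Ref mice its log2 intensity was 14.04 at the lowest, 14.27 at the median and 14.64 at the highest. In HFoleic mice the values were 14.50, 15.23 and 15.79. In HFepa mice they were 14.10, 14.69 and 15.71. The HFoleic mice were above all Ref mice in 5 of 6 cases, mouse 1 being the exception, and the HFepa mice in 4 of 8. The mean rose from 14.29 ± 0.23 (SD, n = 6) in Ref to 15.21 ± 0.47 (SD, n = 6) in HFoleic mice, a log2 fold change of 0.92 (SE 0.26) or 1.89-fold, with an adjusted p of 0.0105 in limma. The difference was between 0.70 and 1.45 within each of the 3 slides, and the 1.45 was on slide 2, which holds 1 HFoleic mouse. The HFepa mean of 14.84 ± 0.59 (SD, n = 8) was 0.54 above Ref (adjusted p = 0.205 in limma). It was 0.37 below HFoleic, with a 95% interval from -0.87 to 0.13 and an adjusted p of 0.39.

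The other Plin2 probe differed less. It read 9.95 ± 0.22 (SD, n = 6) in Ref and 10.28 ± 0.24 (SD, n = 6) in HFoleic mice, a log2 fold change of 0.34 (SE 0.16, adjusted p = 0.113 in limma). Its HFepa mean of 10.03 ± 0.35 (SD, n = 8) was 0.08 above Ref. The direction of the difference was shared, and the call was not.

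The probe of Plin3, which coats small and newly formed droplets and moves between them and the cytosol, lies at chr17:56418429-56418488 (mm9). In Ref mice it read 12.22 at the lowest, 12.75 at the median and 12.95 at the highest. In HFoleic mice it read 12.91, 13.28 and 13.46. In HFepa mice it read 12.46, 13.07 and 13.55. As for Plin2, 5 of 6 HFoleic mice were above all Ref mice and mouse 1 was not, and 5 of 8 HFepa mice were above them. The mean rose from 12.67 ± 0.25 (SD, n = 6) to 13.25 ± 0.19 (SD, n = 6), a log2 fold change of 0.57 (SE 0.15) or 1.49-fold, with an adjusted p of 0.00607 in limma. Within the slides the difference was 0.41 to 0.87, the highest being that of slide 2 with 1 HFoleic mouse. In HFepa mice the mean was 13.04 ± 0.32 (SD, n = 8), 0.37 above Ref (adjusted p = 0.136) and 0.21 below HFoleic (adjusted p = 0.411), with an interval of that last difference from -0.49 to 0.08. Without HFepa mouse 3 the difference of HFepa vs. Ref was 0.45 and was called (adjusted p = 0.0349).

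Both genes are used by macrophages, and most macrophage markers read here were also higher in HFoleic than in Ref mice. Of 7 markers of lipid-associated macrophages, such as Trem2 and Gpnmb, 7 were called higher in HFoleic than in Ref mice, and of 9 general macrophage markers 6 were. The share of all genes called higher there was 15.2%. The general markers not called were Itgam (0.30), Mertk (-0.09) and Cd14 (-0.29). The mean log2 intensity of the 7 markers ranged from 7.88 to 9.35 in Ref, from 11.2 to 13.1 in HFoleic and from 8.54 to 13.6 in HFepa mice. The HFoleic mouse with the lowest level of the list, mouse 1 at 11.2, had the lowest Plin2 (14.50) and the lowest Plin3 (12.91) of its group. The 2 HFepa mice with the highest list levels, mouse 1 at 13.6 and mouse 6 at 12.6, had the highest Plin2 (15.71 and 15.53) and Plin3 (13.55 and 13.29) of theirs. HFepa mouse 3, the lowest of its group for the list at 8.54, was also lowest for Plin3 (12.46) but behind only mice 1 and 6 for Plin2 (15.24). Likewise Ref mouse 5, the lowest of its group for the list at 7.88, was lowest for Plin3 (12.22) but highest for Plin2 (14.64). The part of the macrophage markers in the differences of Plin2 and Plin3 was not tested.

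**Figure D2:**
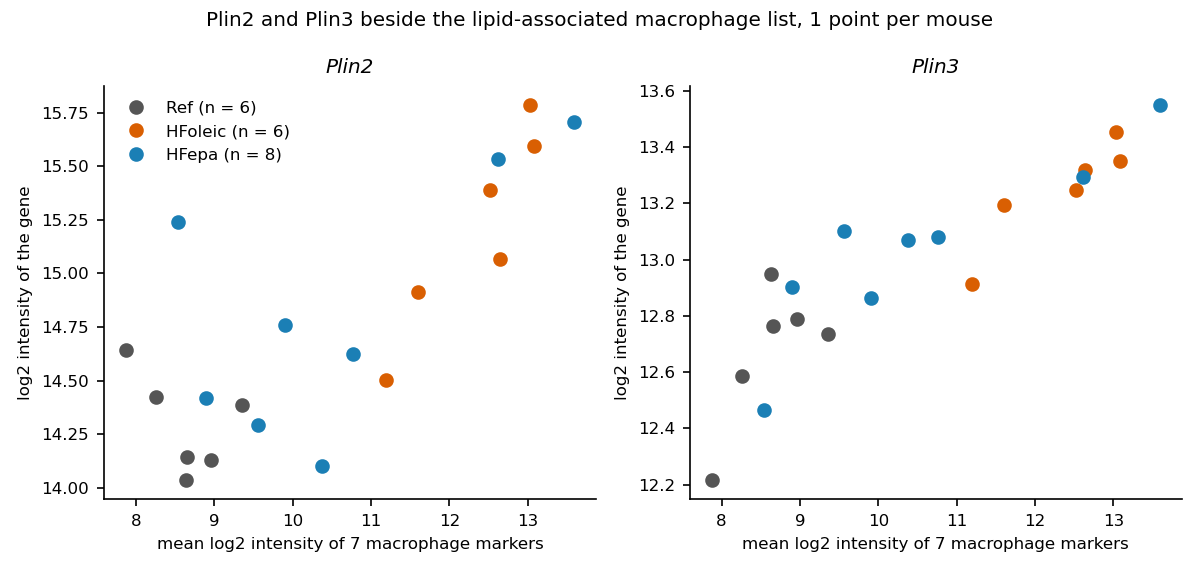
Log2 intensity of Plin2 (left) and Plin3 (right) against the mean log2 intensity of 7 lipid-associated macrophage markers, 1 point per mouse, coloured by group. The 6 Ref mice lie at list levels up to 9.35 and the 6 HFoleic mice at 11.2 or more, while the 8 HFepa mice span 8.54 to 13.6; HFepa mouse 3 lies apart in the Plin2 plot, at 15.24.

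The genes whose pattern over the 20 arrays was most like that of Plin2, each value being taken relative to the gene's own mean, were P2rx7, Plekho1 and AF000427, among 25602 genes. Their root mean square differences from Plin2 were 0.17, 0.17 and 0.20 on the log2 scale, where Plin2 itself varied by 0.57 around its mean. P2rx7 codes for a receptor of extracellular ATP. For Plin3 they were Capn1, which codes for a calcium-dependent protease, Cep250 and Osbpl8, at 0.08, 0.11 and 0.11, where Plin3 varied by 0.33.

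Because Plin2 and Plin3 are the genes that were called, their promoter sequences are shown, from RefSeq on GRCm38.p6, 5′ to 3′ on the strand of the gene and ending at the start of transcription, or 2 bases past it for Plin2. Capitals in the first mark the E-box CACGTG, which is the palindrome bound by basic helix-loop-helix factors such as USF and MYC. The Plin2 stretch is chr4:86670058-86670309 and the Plin3 stretch chr17:56290512-56290761, both on the minus strand.
Plin2: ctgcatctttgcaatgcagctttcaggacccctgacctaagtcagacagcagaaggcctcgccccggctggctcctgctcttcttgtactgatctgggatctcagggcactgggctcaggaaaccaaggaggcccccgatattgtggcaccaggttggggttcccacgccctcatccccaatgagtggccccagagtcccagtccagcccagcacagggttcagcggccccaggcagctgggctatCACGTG
Plin3: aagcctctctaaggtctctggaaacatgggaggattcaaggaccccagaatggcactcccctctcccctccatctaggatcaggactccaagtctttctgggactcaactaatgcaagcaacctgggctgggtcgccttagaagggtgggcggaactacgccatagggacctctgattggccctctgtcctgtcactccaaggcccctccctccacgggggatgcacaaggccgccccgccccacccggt

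Promoters of 250 bases before and 50 after a start were given for 9 of the 10 genes, 14 promoters in all, and the entry of Cidea was missing. The DR1 element, to which PPARG binds with RXR, is AGGTCA, any base and AGGTCA again. It was in 0 of the 14 promoters on either strand, also with up to 1 letter changed, and in 0.0396% and 0.554% of all 32851 promoters. The E-box, which reads the same on both strands, was in 1 of the 14, that of Plin2, where it spans the start of transcription, and in 7.15% of all promoters. No match says only that the letters are not in these windows.

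Plin1 codes for perilipin 1, the coat protein typical of fat cells, and its brightest probe lies at chr7:86866112-86866171 (mm9). In Ref mice it read 14.90 at the lowest, 15.39 at the median and 15.81 at the highest. In HFoleic mice it read 14.78, 14.89 and 15.59. In HFepa mice it read 14.75, 15.28 and 15.45. The groups overlapped, with 4 of 6 HFoleic mice below all Ref mice and mouse 1 of HFoleic, the lowest for Plin2 and Plin3, highest of its group for Plin1. The means were 15.36 ± 0.31 (SD, n = 6), 15.03 ± 0.31 (SD, n = 6) and 15.20 ± 0.23 (SD, n = 8). The log2 fold change of HFoleic vs. Ref was -0.33 (SE 0.15, adjusted p = 0.104 in limma), that of HFepa vs. Ref -0.16 (adjusted p = 0.56) and that of HFepa vs. HFoleic 0.17 (adjusted p = 0.53). Within the slides the HFoleic vs. Ref difference was -0.86 to 0.06. HFoleic vs. Ref was called without Ref mouse 3, at -0.42 (adjusted p = 0.0384), and without HFoleic mouse 1, at -0.44 (adjusted p = 0.0189). In the other 18 of 20 fits without 1 array it was not called (adjusted p at most 0.24).

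A further Plin1 probe was called, and it is shown because the call of the gene depends on the probe read. It lies at chr7:86870028-86870087 (mm9), the files pair it with the cDNA AK027962 but with no RefSeq transcript.
Plin1 AK027962 probe: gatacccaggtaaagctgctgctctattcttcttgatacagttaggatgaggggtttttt
On this probe the mean fell from 11.79 ± 0.22 (SD, n = 6) in Ref to 11.17 ± 0.34 (SD, n = 6) in HFoleic mice, a log2 fold change of -0.61 (SE 0.16, adjusted p = 0.00689 in limma). The HFepa mean of 11.64 ± 0.30 (SD, n = 8) was 0.47 above HFoleic (adjusted p = 0.131). The remaining Plin1 probe, paired with BC025137, gave -0.31 in HFoleic vs. Ref (adjusted p = 0.21), so that all 3 probes were lower in HFoleic mice and 1 was called.

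Plin4, which coats small droplets of fat cells, was among the brightest probes of the array and lies at chr17:56240055-56240114 (mm9). Ref mice read 17.94 at the lowest, 18.05 at the median and 18.11 at the highest. HFoleic mice read 17.71, 17.79 and 18.15. HFepa mice read 17.69, 17.96 and 18.24. Of the 6 HFoleic mice 5 were below all Ref mice and mouse 1 was above them all. The log2 fold change of HFoleic vs. Ref was -0.20 (SE 0.09, adjusted p = 0.0862 in limma). It was called on scales without quantile normalization, at -0.45 (adjusted p = 0.0061) on the processed signal and -0.41 (adjusted p = 0.011) with median centring. After quantile normalization it was called with array weights, at -0.24 (adjusted p = 0.00886), and without HFoleic mouse 1, at -0.26 (adjusted p = 0.0157). In the other 19 of 20 fits without 1 array it was not called (adjusted p at most 0.17). What the call depends on was not tested. On the processed signal 5 of the 10 genes were called, Plin2 and Plin3 higher and Plin1, Plin4 and Cidec lower. In HFepa vs. Ref the difference was -0.08 (adjusted p = 0.601) and in HFepa vs. HFoleic 0.12 (adjusted p = 0.435).

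Plin5, the perilipin of oxidative tissues that brings droplets to mitochondria, has its brightest probe at chr17:56251025-56251084 (mm9). It read 11.18, 11.65 and 11.77 in Ref mice as the lowest, median and highest value. It read 10.90, 11.29 and 11.52 in HFoleic mice. It read 11.20, 11.54 and 12.85 in HFepa mice, of which mouse 3, at 12.85, and mouse 7, at 12.04, were above every other mouse. HFoleic vs. Ref gave -0.37 (SE 0.21, adjusted p = 0.199 in limma) and HFepa vs. Ref 0.11 (adjusted p = 0.794). HFepa vs. HFoleic gave 0.48 (SE 0.20, adjusted p = 0.182), or 1.39-fold, with a 95% interval from 0.07 to 0.89. The sign of HFepa vs. Ref rested on HFepa mouse 3, since it was -0.05 without that mouse, and HFepa vs. HFoleic was 0.32 without it (adjusted p = 0.261). The second probe gave -0.45, 0.04 and 0.48 in the same order.

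**Figure D3:**
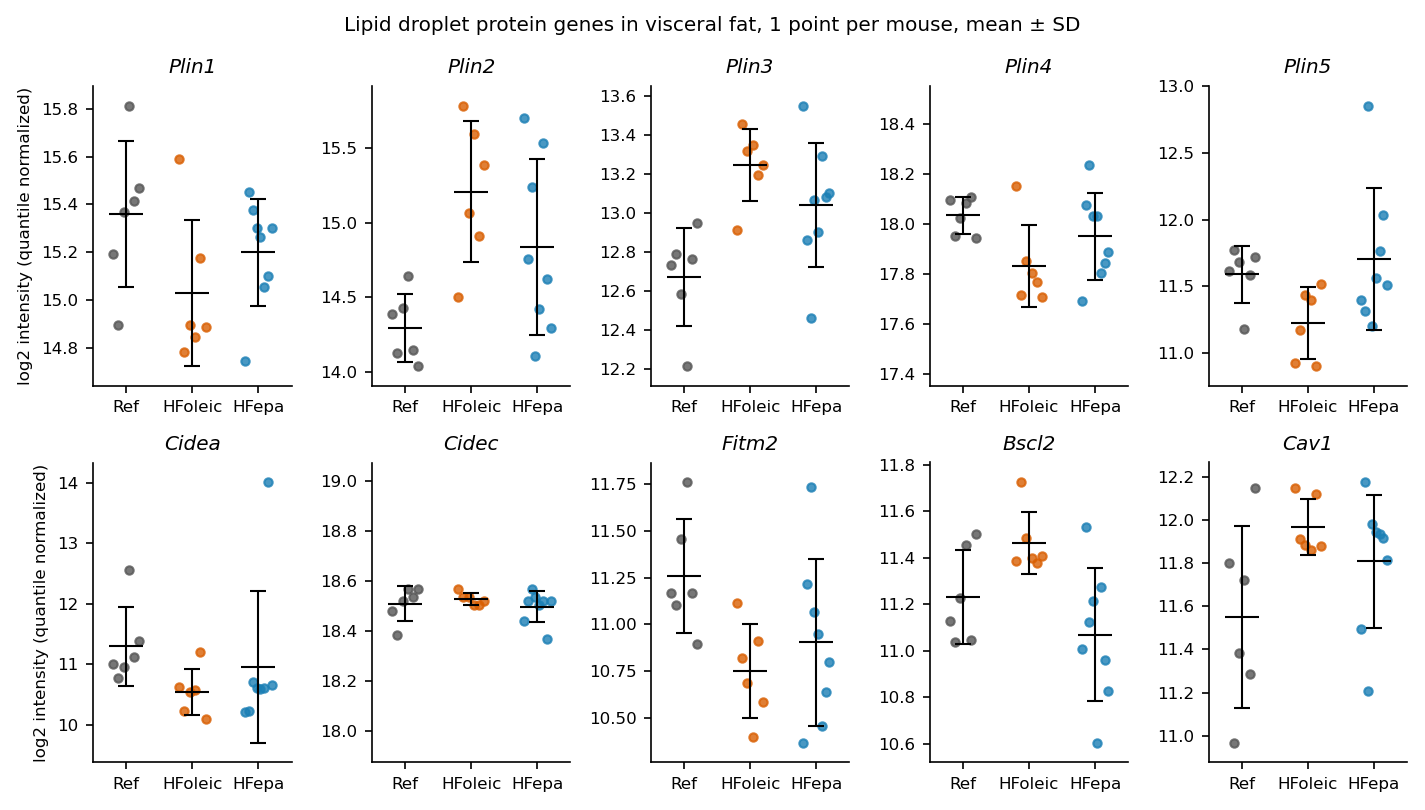
Quantile-normalized log2 intensity of the 10 genes, 1 panel per gene with its own axis, 1 point per mouse, and bars for the mean ± SD of 6 Ref, 6 HFoleic and 8 HFepa mice. Plin2 and Plin3 are higher in HFoleic than in Ref mice with 1 HFoleic mouse within the Ref range, Cidec lies between 18.37 and 18.57 everywhere, and Cidea has 1 HFepa mouse at 14.01.

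The genes of the CIDE proteins behaved differently from each other. Cidec codes for the CIDE protein of white fat that makes single large droplets, and its probe at chr6:113374693-113374752 (mm9) was among the brightest. It read 18.38, 18.53 and 18.57 in Ref mice as the lowest, median and highest value. In HFoleic mice it read 18.50, 18.53 and 18.57, and in HFepa mice 18.37, 18.52 and 18.57. Quantile normalization gives every array the same set of values, so probes of the same rank get the same value. The value 18.57 was shared by Ref mice 5 and 7, HFoleic mouse 1 and HFepa mouse 3. A small difference on this scale therefore does not show that the signal was equal. The difference of HFoleic vs. Ref was 0.02 after quantile normalization (adjusted p = 0.785), and the sign turned on the other scales, to -0.28 on the processed signal (adjusted p = 0.0249) and -0.23 with median centring (adjusted p = 0.059). The difference of HFepa vs. HFoleic turned likewise, from -0.03 (adjusted p = 0.734) to 0.11 (adjusted p = 0.47) and 0.08 (adjusted p = 0.61).

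Cidea, which is typical of brown and beige fat and enlarges droplets there, has its probe at chr18:67527351-67527410 (mm9). In Ref mice it read 10.77 at the lowest, 11.06 at the median and 12.57 at the highest. In HFoleic mice it read 10.1, 10.56 and 11.20. In HFepa mice it read 10.21, 10.61 and 14.01. Of the HFoleic mice 5 of 6 and of the HFepa mice 7 of 8 were below all Ref mice, and the remaining HFepa mouse, mouse 7, was above all. The log2 fold changes were -0.76 (SE 0.48, adjusted p = 0.253 in limma) in HFoleic vs. Ref, -0.35 (adjusted p = 0.714) in HFepa vs. Ref and 0.41 (adjusted p = 0.649) in HFepa vs. HFoleic. Without HFepa mouse 7 the 3 values were -0.76 (adjusted p = 0.0221), -0.78 (adjusted p = 0.0871) and -0.03 (adjusted p = 0.97). HFoleic vs. Ref was thus called only without that mouse, and the sign of HFepa vs. HFoleic rested on it. Without Ref mouse 5, at 12.57 the highest of its group, HFoleic vs. Ref was -0.50 (adjusted p = 0.471) and HFepa vs. Ref -0.09 (adjusted p = 0.937).

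Some markers of brown fat were highest in HFepa mouse 7, as Cidea was, and others were not. Ucp1, which uncouples respiration in brown fat mitochondria, read 12.40 in that mouse and at most 6.23 in the other 19, and it was well above background on 11 of the 20 arrays. Cox7a1 read 13.06 there against at most 11.71 elsewhere, Cox8b 13.59 against 13.04 (Ref mouse 5) and Cpt1b 9.24 against 7.70, while the highest Elovl3, Eva1a, Kcnk3 and Otop1 were in other mice. Within the HFepa group, mouse 7 was highest for Elovl3 (7.92) and Otop1 (9.55), in between for Eva1a (9.54) and lowest for Kcnk3 (9.01). The mean of the 8 markers was 10.5 in HFepa mouse 7 and at most 8.85 in the other HFepa mice, 8.58 in Ref and 9.16 in HFoleic mice. In Ref mouse 5, the second highest for Cidea at 12.57, Ucp1 was not well above background, while Cox8b was the second highest of all 20 mice, and Otop1 (7.54) and the mean of the 8 markers (8.58) were the highest of the Ref group. The part of the brown fat markers in the high Cidea of these mice was not tested.

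**Figure D4:**
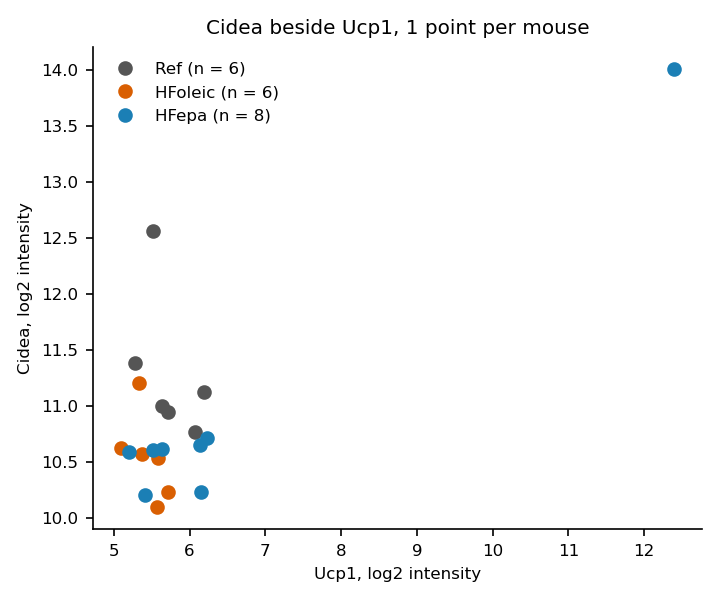
Log2 intensity of Cidea against that of Ucp1, 1 point per mouse, coloured by group. HFepa mouse 7 stands alone at 12.40 for Ucp1 and 14.01 for Cidea, and Ref mouse 5 is high for Cidea (12.57) with Ucp1 among the low values.

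Fitm2 codes for FIT2, an enzyme of the endoplasmic reticulum that is needed for droplets to bud, and its brightest probe lies at chr2:163294776-163294835 (mm9). Ref mice read 10.89 at the lowest, 11.17 at the median and 11.76 at the highest. HFoleic mice read 10.40, 10.75 and 11.11. HFepa mice read 10.37, 10.87 and 11.74. In each obesogenic group 4 mice were below all Ref mice, 4 of 6 in HFoleic and 4 of 8 in HFepa. HFoleic vs. Ref gave -0.51 (SE 0.19, adjusted p = 0.0535 in limma). It was called in 5 of 20 fits without 1 array (Ref mouse 7, HFoleic mouse 1, HFepa mouse 1, 3 or 6). Those gave an adjusted p between 0.0212 and 0.0487, and the other 15 at most 0.128. Of the 11 other alternatives 3 called it, with adjusted p from 0.00626 to 0.233 over the 11. HFepa vs. Ref gave -0.36 (adjusted p = 0.273) and HFepa vs. HFoleic 0.15 (adjusted p = 0.685). The dimmer Fitm2 probe gave -0.20, -0.16 and 0.03 (adjusted p = 0.459, 0.645 and 0.941 in limma).

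Bscl2 codes for seipin, which shapes the contact between the endoplasmic reticulum and a growing droplet, and its probe lies at chr19:8920973-8921032 (mm9). Ref mice read 11.04 at the lowest, 11.18 at the median and 11.50 at the highest. HFoleic mice read 11.38, 11.40 and 11.73. HFepa mice read 10.60, 11.07 and 11.53. Of the 8 HFepa mice 7 were below all HFoleic mice, and mouse 2 was within their range. The means were 11.23 ± 0.20 (SD, n = 6), 11.46 ± 0.13 (SD, n = 6) and 11.07 ± 0.29 (SD, n = 8). HFepa vs. HFoleic gave -0.40 (SE 0.12, adjusted p = 0.124 in limma), with a 95% interval from -0.64 to -0.15 and a difference between -0.58 and -0.39 within each slide. On slide 2 that difference rests on 1 HFoleic mouse, mouse 4, which was the highest of its group. A block for the slide gave a called difference of -0.48 (adjusted p = 0.0116), and array weights gave one of -0.38 (adjusted p = 0.0342), in fits that called 1297 and 4304 of all 39390 probes where the fit without them called 1. HFoleic vs. Ref gave 0.23 (adjusted p = 0.173), also called with the slide as a block at 0.30 (adjusted p = 0.00501), and HFepa vs. Ref -0.16 (adjusted p = 0.458).

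Cav1 codes for caveolin-1, the coat protein of caveolae, which also reaches droplets, and its brightest probe lies at chr6:17289414-17289473 (mm9). Ref mice read 10.97 at the lowest, 11.55 at the median and 12.15 at the highest. HFoleic mice read 11.86, 11.90 and 12.15. HFepa mice read 11.21, 11.92 and 12.18. Ref mouse 7 was within the range of HFoleic, and the other 5 Ref mice were below all HFoleic mice. HFoleic vs. Ref gave 0.42 (SE 0.17, adjusted p = 0.0695 in limma), HFepa vs. Ref 0.26 (adjusted p = 0.378) and HFepa vs. HFoleic -0.16 (adjusted p = 0.611). Within the slides the HFoleic vs. Ref difference was -0.03 to 0.67, the lowest being that of slide 2 with 1 HFoleic mouse. The other Cav1 probe gave nearly the same difference in HFoleic vs. Ref with less spread, 0.41 (SE 0.15), and was called (adjusted p = 0.0456 in limma). It rose from 11.07 ± 0.34 (SD, n = 6) to 11.48 ± 0.14 (SD, n = 6), and HFepa mice read 11.38 ± 0.30 (SD, n = 8). Without Ref mouse 7 the brighter probe was called as well, at 0.53 (adjusted p = 0.0151), and without HFepa mouse 3, which left the difference at 0.42 (adjusted p = 0.0433). In the other 18 of 20 fits without 1 array the brighter probe was not called (adjusted p at most 0.176).

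Genes that work with these proteins were read in the same fit, from 4 lists of 31 genes in all, of which 30 were tested and Fitm1 did not pass the filter. In HFoleic vs. Ref 14 of the 30 were called, 7 higher and 7 lower, against the 31.8% of all genes given above. In HFepa vs. Ref 1 was called, and in HFepa vs. HFoleic 0 in limma, beside 2.46% and 0% of all genes. At an unadjusted p under 0.05 the counts were 17, 9 and 5 of the 30, beside 42.2%, 21.6% and 20.8% of all genes. The median log2 fold change of the 30 genes was -0.09, -0.07 and 0.02, and that of all genes -0.04, -0.02 and 0.01.

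Of the 7 genes of droplet lipolysis, 5 were called lower and 1 higher in HFoleic than in Ref mice. Of all genes 31.8% were called there in either direction and 15.2% higher. In the comparisons with HFepa mice 0 of the 7 were called, beside 2.46% of all genes in HFepa vs. Ref and 0% in HFepa vs. HFoleic. Of 9 adipocyte markers, 4 were called lower in HFoleic vs. Ref: Pck1 (-1.16), Adrb3 (-0.89), Retn (-0.65) and Cfd (-0.50). The other 5 were not called: Adipoq (-0.03), Fabp4 (0.02), Slc2a4 (0.14), Thrsp (0.19) and Aqp7 (0.23). The median of the list was -0.03. The part of the adipocyte markers in the lower lipolysis genes was not tested. Lipe, which codes for hormone-sensitive lipase, a partner of perilipin 1 at the droplet, read between 13.93 and 14.37 in Ref, 12.56 and 13.85 in HFoleic and 13.10 and 14.02 in HFepa mice. All HFoleic mice were below all Ref mice, and the log2 fold change was -1.19 (SE 0.20, adjusted p = 0.000517 in limma). In HFepa vs. Ref it was -0.51 (adjusted p = 0.13) and in HFepa vs. HFoleic 0.68 (adjusted p = 0.118). Hilpda, an inhibitor of adipose triglyceride lipase, gave -0.92 (adjusted p = 0.00217) in HFoleic vs. Ref and -0.64 (adjusted p = 0.068) in HFepa vs. Ref. Abhd5, the co-activator that perilipin 1 holds, gave -0.78 (adjusted p = 0.00269) and -0.61 (adjusted p = 0.0528), its HFoleic range from 11.35 to 11.92 lying below the Ref range from 12.03 to 12.95. The other genes called lower, named after their values were seen, were Pnpla2 (-0.42, adjusted p = 0.0275), which codes for adipose triglyceride lipase, and its inhibitor G0s2 (-0.63, adjusted p = 0.00732). The call of the lipase gene Pnpla2 was lost in 5 of 20 fits without 1 array and with the replicate block. The gene called higher, also named after its value was seen, was Pnpla3 (1.83, adjusted p = 0.0027), a relative of that lipase. The 5 genes called lower were those of 2 lipases, a co-activator and 2 inhibitors.

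Of the 7 tested genes of droplet assembly and triglyceride synthesis, 2 were called higher and 2 lower in HFoleic vs. Ref. The shares of all genes were 15.2% called higher and 31.8% called in either direction. Dgat2, which codes for the enzyme of the last step of triglyceride synthesis at the droplet, read between 14.87 and 16.90 in Ref, 16.92 and 17.77 in HFoleic and 15.65 and 17.02 in HFepa mice. The HFoleic mice were above all Ref mice, the closest pair being 16.92 and 16.90, and the log2 fold change was 1.51 (SE 0.27, adjusted p = 0.000716 in limma). HFepa vs. HFoleic gave -0.82 (adjusted p = 0.126). Agpat2, an acyltransferase of the same pathway whose loss, like that of seipin, causes congenital lipodystrophy, gave 0.93 in HFoleic vs. Ref (adjusted p = 0.00177) and -0.56 in HFepa vs. HFoleic (adjusted p = 0.131). Gpat4, an acyltransferase that moves onto growing droplets, gave -0.56 (adjusted p = 0.0108) in HFoleic vs. Ref, a call that was lost when all its probes were averaged. The other gene called lower, named after its value was seen, was Ldaf1, the partner of seipin, at -0.50 (adjusted p = 0.0162). Its call was lost with the replicate block.

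Beside 31.8% of all genes, 1 of the 8 other droplet surface proteins was called in HFoleic vs. Ref. This was Pcyt1a, which codes for the enzyme that supplies phosphatidylcholine to growing droplets, at 0.38 (SE 0.09, adjusted p = 0.00301 in limma), with HFoleic mice between 12.32 and 12.64 and Ref mice between 12.05 and 12.18. Next by p were Hsd17b13 (-0.18, adjusted p = 0.07) and Faf2 (-0.15, adjusted p = 0.106). Of the 8 genes of the caveola coat, 3 were called higher in HFoleic vs. Ref, beside 15.2% of all genes. Cavin1, without which caveolae do not form, read between 17.43 and 17.88 in Ref, 18.00 and 18.12 in HFoleic and 17.77 and 18.15 in HFepa mice. After quantile normalization its log2 fold change was 0.35 (SE 0.07, adjusted p = 0.00184 in limma) in HFoleic vs. Ref and 0.31 (SE 0.07, adjusted p = 0.027) in HFepa vs. Ref, the only called gene of the 30 there. On the processed signal the HFoleic vs. Ref difference was 0.08 (adjusted p = 0.566), and with median centring it was not called either (adjusted p = 0.336). Under the processed signal, median centring, the replicate block and the fit to the compared groups only, 0 of the 30 were called in HFepa vs. Ref. Cavin3 gave 0.56 (adjusted p = 0.0249) and Ehd2, an ATPase at the caveola neck, 0.36 (adjusted p = 0.0461) in HFoleic vs. Ref, beside the 0.42 of Cav1. Of the 3 calls, that of Cavin3 alone held on the processed signal, and it was lost without Ref mouse 3, 4 or 6 or HFoleic mouse 7 (adjusted p at most 0.067), while that of Ehd2 was lost in 12 of 20 fits without 1 array (adjusted p at most 0.119). The level of 8 endothelial markers, from cells that also hold many caveolae, had group means of 11.9, 11.8 and 12.0 in Ref, HFoleic and HFepa mice. In HFoleic vs. Ref 0 of the 8 were called, beside 31.8% of all genes. Of 7 progenitor and fibroblast markers 2 were called higher there, Col1a1 (1.49) and Cd34 (0.42), beside 15.2% of all genes. The mean of that list was 12.70 in Ref and 13.02 in HFoleic mice. The part of these cells in the caveola genes was not tested.

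**Figure D5:**
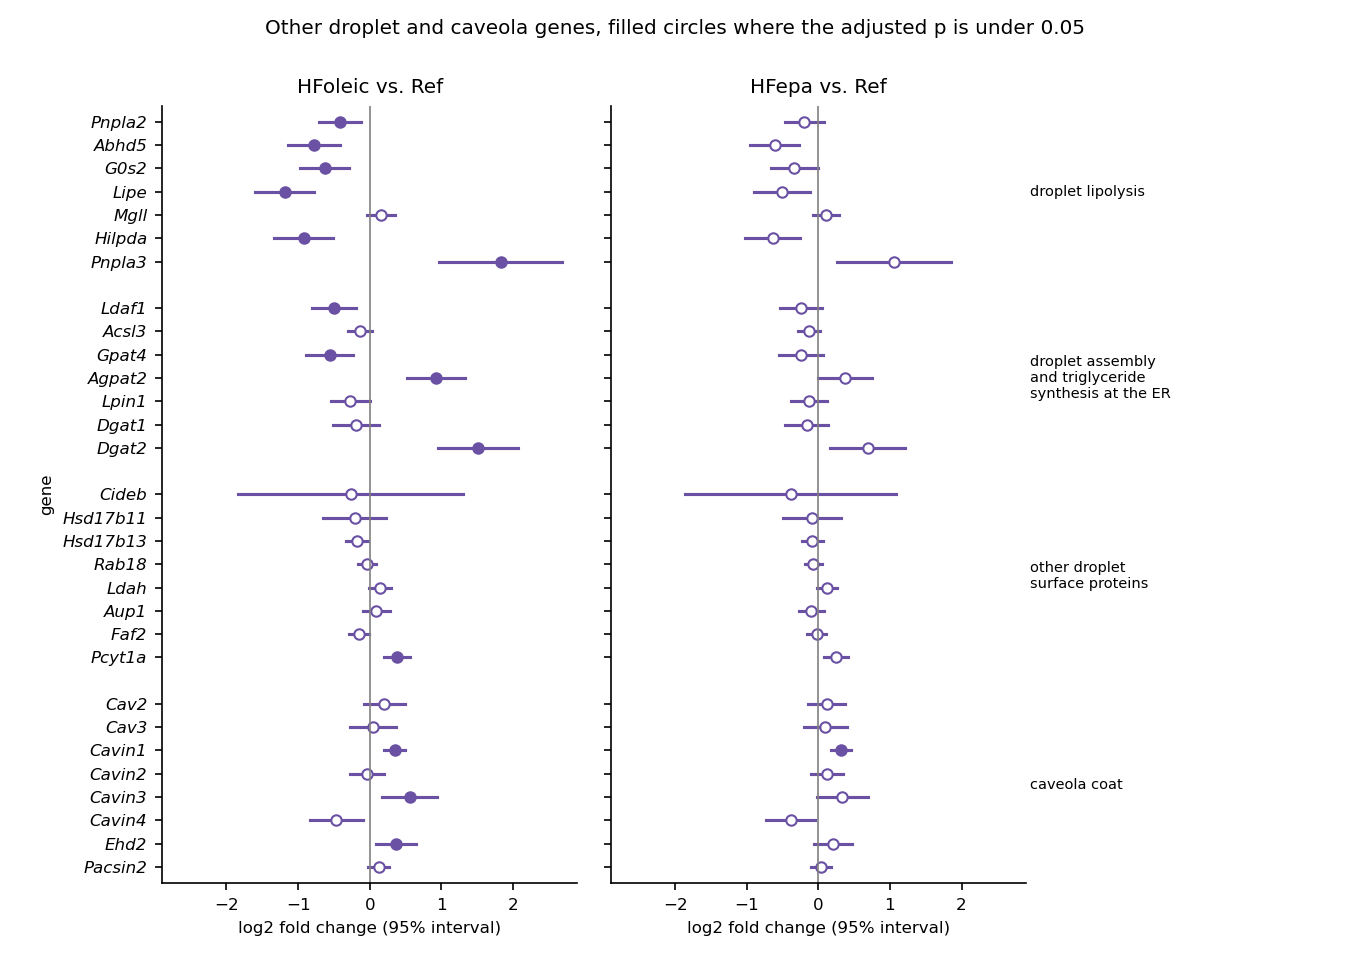
Log2 fold change with 95% intervals from limma of 30 other droplet and caveola genes in HFoleic vs. Ref (left) and HFepa vs. Ref (right), grouped by list, filled where the adjusted p was under 0.05. On the left 14 circles are filled, 7 on each side of 0, and on the right that of Cavin1 (0.31), whose calls were lost on the processed signal.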

How the data were processed

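Cy3-labelled RNA of 20 mice was hybridized to Agilent SurePrint G3 arrays. The authors read spot intensities with Agilent Feature Extraction 10.10.1.1 (submitters' processing notes), and as deposited the median intensity is linear and not normalized. The authors' deposited table of log2 values was made by a filter, whose rule is not stated, and quantile normalization of the median intensity. It holds 38168 probes, correlates with the values here at r of 0.99998 or more, and served as an alternative.

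Here the spot files were used, with R 4.3.3 and limma 3.58.1. Control spots and spots marked as outliers were left out, probes well above background on at least 6 arrays were kept, log2 median intensities were quantile normalized, and spots of a probe were averaged. Coordinates are those of the files (mm9). The exon or intron under a probe was not analysed here. Each gene was read by its brightest tested probe. The group means of all 20 arrays were estimated and compared in 1 limma model (lmFit, eBayes), and p-values were adjusted over all tested probes. The steps were tested on simulated data.

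The members and lists were chosen with earlier results of these data known. Named were all 10 members, their other probes where sign or call differed, in each other list up to 3 genes with the smallest p in HFoleic vs. Ref, and the 3 genes most like each called member. Marker lists were written by hand. Plots were drawn with matplotlib 3.10.9. Alternatives were other background corrections and scalings, no filter, marked spots kept, slide or replicate number as a block, array weights, the compared groups only, all probes of a gene, and each array left out. The main fit did not treat replicate numbers as pairs, and the labels do not say whether they are.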

Additional observations from a re-analysis of the deposited data

Results flagged for a closer look

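Values of 1 mouse lay far from the others of its group in 12 of 75 groups of values (16 probes and 9 marker lists in 3 groups each), by Dixon's test at its 95% critical value. Chance flags about 1 in 20 groups, and probes of 1 mouse are not independent. Among the genes of the droplet proteins, Cidea was high in HFepa mouse 7 (14.01, next 10.71) and in Ref mouse 5 (12.57, next 11.38). In Ref mouse 5, Plin5 was low (11.18, next 11.58) and the Plin1 probe paired with AK027962 was high (12.22, next 11.76). Plin4 was high in HFoleic mouse 1 (18.15, next 17.85), and Bscl2 was high in HFoleic mouse 4 (11.73, next 11.49).

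Among the means of marker lists, the brown adipocyte list was high in HFepa mouse 7 (10.54, next 8.85). The epididymis list was high in HFoleic mouse 5 (7.88, next 7.34) and in HFepa mouse 2 (9.14, next 7.61). In HFoleic mouse 4 the lymphocyte list was low (7.03, next 7.46) and the progenitor and fibroblast list was high (13.26, next 13.01). The latter list was low in HFepa mouse 8 (12.41, next 12.70).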

How the results depend on the processing

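The calls of Plin2 and Plin3 in HFoleic vs. Ref held in all 20 fits that left out 1 array, with log2 fold changes from 0.80 to 1.06 and from 0.48 to 0.64, and were lost with the replicate block, a number shared by mice of different groups (0.96, adjusted p = 0.053, and 0.49, adjusted p = 0.061). Of the 10 genes, 5 were called in HFoleic vs. Ref on the processed signal, 4 with the slide as a block, 0 with the replicate block, 6 with array weights and 4 with the compared groups only, against 2. These 5 fits called 32.4%, 32.1%, 19.99%, 40.7% and 32.3% of all probes. With 1 array left out the count was 2 to 5, being 4 without Ref mouse 7, 5 without HFoleic mouse 1 and 4 without HFepa mouse 3. Those fits called 31.7%, 33.4% and 31.7% of all probes. In HFepa vs. Ref the count was 0 to 1, Plin3 being called without HFepa mouse 3 (0.45, adjusted p = 0.0349), in a fit that called 6.38% of all probes. In HFepa vs. HFoleic a block for the slide gave 1 and array weights gave 1, Bscl2 both times, in fits that called 3.29% and 10.9% of all probes. Of the 30 other genes, the count in HFepa vs. Ref was 0 on the processed signal, 0 with median centring, 0 with the replicate block, 0 with the compared groups only and 3 with array weights, and 0 to 5 with 1 array left out. In HFepa vs. HFoleic a block for the slide gave 3, array weights gave 2 and leaving out 1 array gave 0 to 2. In HFoleic vs. Ref it stayed within 1.5 times the 14 under every alternative, at 11 to 15 with 1 array left out, although the calls of Cavin1 and Ehd2 were lost on the processed signal. The cause of these changes was not tested.

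Sign changes were all in differences that had not been called. For Cidec in HFoleic vs. Ref they were -0.28 on the processed signal, -0.23 with median centring and -0.0054 to 0.032 with 1 array left out (negative without Ref mouse 3). For Cidec in HFepa vs. Ref the range with 1 array left out was -0.037 to 0.0071, positive if Ref mouse 5, Ref mouse 7 or HFepa mouse 7 was absent, and in HFepa vs. HFoleic 0.11 on the processed signal and 0.082 with median centring. For Cidea the sign changed to 0.046 with array weights in HFepa vs. Ref, and in HFepa vs. HFoleic the range was -0.026 (without HFepa mouse 7) to 0.54. For Plin5 in HFepa vs. Ref it was -0.051 (without HFepa mouse 3) to 0.18. Of 330 fold changes of the 10 genes under the other alternatives, 308 kept sign and side of the threshold, and of 600 with 1 array left out, 582 did. Whether the replicate numbers pair the mice is not given in the labels, and correlations of deviations from the group means cannot decide it. Those of 2 of 4 shared numbers were above 0.1 in HFoleic vs. Ref (-0.47 to 0.14). The same held for 1 of 6 in HFepa vs. Ref (-0.43 to 0.15) and 2 of 6 in HFepa vs. HFoleic (-0.59 to 0.56).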
